A study of Mus musculus with 18 samples.

Results

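The genes described here make, fold and clear proteins in the endoplasmic reticulum (ER), the compartment in which secreted and membrane proteins are built. They number 31 of the 55487 genes in the deposited count table, and all 31 were found by their symbol in the GENCODE M21 annotation of GRCm38. By role they are 5 chaperones, 4 cochaperones, 7 enzymes of disulfide bond formation, 2 secreted folding factors, 8 genes of ER-associated degradation (ERAD), 3 stress sensors and effectors, and 2 genes of protein translocation.

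RNA was sequenced from the nuclear and the cytoplasmic fraction of BV2 cells, which are an immortalised line of mouse microglia. Cells were left untreated (0 h) or kept with 10 µM oxyhemoglobin, the oxygen-carrying pigment released from red blood cells, for 12 or 24 h. The study asked how RNA is distributed between nucleus and cytoplasm under this stimulus. The 18 libraries form 6 groups of 3, by fraction and time, and the labels do not say whether these came from separate cultures. No untreated cells were taken at 12 or 24 h, so treatment and time in culture cannot be told apart. The count table holds only the mean of each 3 libraries, so no spread between libraries and no test across them is given for any value. In these bulk fractions, fewer cells of a type and less RNA per cell cannot be told apart.

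Summed over its 3 libraries, a nuclear group held 14652566 to 16031875 counts and a cytoplasmic group 16537318 to 22379595. Of 17 microglia and macrophage markers, 7 to 11 per group had a mean count of at least 10, with a summed level of 547 to 1007 counts per 1000000 (CPM) in the nuclear groups and 326 to 402 in the cytoplasmic groups. P2ry12, a marker of resting microglia, was at 0 to 0.312 CPM. Single markers moved with the treatment in both directions. At 0, 12 and 24 h their summed level was 1007, 620 and 547 CPM in the nucleus and 326, 402 and 361 in the cytoplasm. Ptprc held the largest part of the nuclear sum, with 598, 341 and 295 CPM. In the nucleus at the same times the microglial receptor Trem2 was at 256, 88.9 and 101 CPM. The myeloid factor Spi1 was at 45.3, 86.2 and 63.4 CPM there and Cd68 at 14.2, 23.3 and 31.1. Markers of other brain cells and fibroblasts summed to 12.1 to 18.2 CPM, those of plasma and secretory cells, which are rich in ER, to 16.1 to 22.4, and erythroid markers to 0.447 to 13.4. All 4 hemoglobin genes were at 0 in every group except the cytoplasmic group at 12 h, where Hbb-bt was at 0.544 and Hbb-bs at 0.121 CPM. In that group the fibroblast markers Col1a1 (2.72 CPM) and Col3a1 (2.42) also stood above the other groups (0 to 0.374). The part of these markers in the results below was not tested.

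Cells answer misfolded protein in the ER with the unfolded protein response. The transmembrane sensors IRE1 (encoded by Ern1), ATF6 and PERK are held back by the chaperone BiP (encoded by Hspa5), which leaves them when unfolded protein accumulates. ATF6 is then cut to release a transcription factor, IRE1 splices the mRNA of the factor XBP1, and PERK slows translation, and together the freed factors raise the transcription of chaperones, folding enzymes and ERAD genes. Splicing of Xbp1 cannot be read from counts per gene and was not analysed here.

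Levels are given as normalised CPM, scaled within each fraction by TMM (the trimmed mean of M-values), so that nuclear and cytoplasmic levels are on separate scales. A gene is called higher or lower where the ratio of 2 group means is at least 2-fold and its 95% counting interval excludes 0 on the log2 scale. The interval covers counting error only. Of the 31 genes, 30 passed the limit on low counts in the nucleus and 28 in the cytoplasm. Derl3 failed in both fractions (mean counts of 5.67 or less in every group), and Herpud1 and Sec61b failed in the cytoplasm (mean counts of 7 or less).

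A property of the count table bears on the levels of these genes. Over 2377 protein-coding genes in which 80% to 100% of the exonic bases belong to a single annotated transcript, the median untreated cytoplasmic level was 120.69 counts per exonic kilobase. Over 853 genes in which 0% to 20% do, it was 2.99. The nuclear medians of the same ranges were 54.3 and 9.84. Counts were thus lower where annotated transcripts share more sequence, and more so in the cytoplasm. By this measure Hspa5 (40.2% of exonic bases in a single transcript), Hsp90b1 (41.0%), Hyou1 (36.5%), Sel1l (26.1%), Derl3 (21.8%), Canx (19.6%), Herpud1 (19.3%), Syvn1 (10.9%) and Edem1 (6.46%) lie in the lower ranges. Levels were not compared between genes for any of the 22 with a share under 80%. A share of at least 80% was found for 9 genes, namely Pdia4, Ssr1, Edem2, Derl2, Dnajb9, Atf6, Sdf2l1, Dnajc3 and Creld2.

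The promoters are shown because ATF6 and XBP1 are known to act on many of these genes through the ER stress response element (ERSE), a CCAAT box and a CCACG box that are 9 bases apart. RefSeq promoters on GRCm38.p6 were matched for 27 of the 31 genes, Ero1l and Ero1lb under their newer symbols Ero1a and Ero1b. There was no match for Hyou1, Derl1, Manf and Atf6. In the 250 bases before the start site, searched on both strands, an ERSE stood in 10 of the 27 (37.0%) and in 37 of all 32851 promoters (0.113%). ERSE-II, an ATTGG box and a CCACG box that are 1 base apart, was found in Herpud1 only among the 27 (3.7%) and in 10 of all promoters (0.0304%). TGACG followed directly by TGG, the core of the XBP1-binding UPRE, was in 0 of the 27 and in 0.563% of all. Taken alone, CCAAT was in 20 of the 27 (74.1%, 33.8% of all) and CCACG in 21 (77.8%, 28.3% of all), and these counts include the boxes within each ERSE and ERSE-II. A match is a description of the letters and not a measured binding site. The 12 elements are given 5′ to 3′ on the strand that carries them, with both boxes in capitals and their distance from the start site of the gene.
Hspa5 (chr2:34772025-34772043, 65 to 47 bases upstream, gene strand): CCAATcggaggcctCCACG
Hsp90b1 (chr10:86705638-86705656, 212 to 194 bases upstream, gene strand): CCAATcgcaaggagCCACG
Hsp90b1 (chr10:86705533-86705551, 107 to 89 bases upstream, opposite strand): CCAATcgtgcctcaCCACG
Calr (chr8:84847075-84847093, 162 to 144 bases upstream, opposite strand): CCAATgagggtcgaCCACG
Canx (chr11:50325800-50325818, 145 to 127 bases upstream, gene strand): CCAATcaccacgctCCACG
Dnajc3 (chr14:118937827-118937845, 105 to 87 bases upstream, gene strand): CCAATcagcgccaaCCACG
Pdia6 (chr12:17266491-17266509, 98 to 80 bases upstream, gene strand): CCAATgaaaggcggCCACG
Ero1lb (chr13:12565682-12565700, 201 to 183 bases upstream, opposite strand): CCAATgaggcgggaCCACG
Creld2 (chr15:88819520-88819538, 126 to 108 bases upstream, opposite strand): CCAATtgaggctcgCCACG
Herpud1 (chr8:94386377-94386387, 52 to 42 bases upstream, gene strand): ATTGGgCCACG
Syvn1 (chr19:6046532-6046550, 44 to 26 bases upstream, gene strand): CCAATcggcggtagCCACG
Derl3 (chr10:75893242-75893260, 156 to 138 bases upstream, opposite strand): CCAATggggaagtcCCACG

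The 4 genes with an ERSE that had the largest nuclear ratios at 12 h are shown with the whole 250 bases before the start site, 5′ to 3′ on the gene's strand. Capitals mark the CCAAT and CCACG boxes of each ERSE, or their reverse complements ATTGG and CGTGG where the element lies on the opposite strand. Hsp90b1 holds an element on either strand.
Creld2 (chr15:88819396-88819645, plus strand): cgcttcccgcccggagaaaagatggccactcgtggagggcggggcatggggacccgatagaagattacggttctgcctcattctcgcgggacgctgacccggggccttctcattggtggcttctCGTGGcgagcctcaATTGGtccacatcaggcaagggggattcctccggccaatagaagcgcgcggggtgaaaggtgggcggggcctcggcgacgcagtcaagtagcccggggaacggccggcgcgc
Pdia6 (chr12:17266339-17266588, plus strand): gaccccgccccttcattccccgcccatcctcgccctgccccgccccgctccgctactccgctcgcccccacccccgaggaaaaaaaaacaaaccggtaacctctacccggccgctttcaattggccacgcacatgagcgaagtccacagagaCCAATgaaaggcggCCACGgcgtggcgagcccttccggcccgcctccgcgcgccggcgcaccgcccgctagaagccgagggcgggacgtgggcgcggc
Calr (chr8:84846932-84847181, minus strand): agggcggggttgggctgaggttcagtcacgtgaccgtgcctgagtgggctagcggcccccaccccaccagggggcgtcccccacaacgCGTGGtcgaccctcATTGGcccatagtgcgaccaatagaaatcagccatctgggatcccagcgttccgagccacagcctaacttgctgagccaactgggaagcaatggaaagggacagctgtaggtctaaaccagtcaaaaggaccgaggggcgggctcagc
Hsp90b1 (chr10:86705445-86705694, minus strand): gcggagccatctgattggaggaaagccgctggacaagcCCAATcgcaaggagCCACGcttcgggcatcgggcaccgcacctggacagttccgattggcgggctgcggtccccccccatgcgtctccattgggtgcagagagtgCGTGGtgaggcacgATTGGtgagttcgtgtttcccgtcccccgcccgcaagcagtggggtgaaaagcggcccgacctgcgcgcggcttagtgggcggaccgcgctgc

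In the nucleus at 12 h, ER folding genes were higher as a group. Of 30 genes compared, 12 were called higher than at 0 h, against 7.92% of the 17295 genes compared in all, and 0 were called lower, against 6.64%. Their log2 ratios ran from −0.63 to 1.77 with a median of 0.92, while the median of all genes was 0.00, and 24 of the 30 were above 0. Among the 9 genes with a single-transcript share of at least 80%, 4 were higher and the median was 0.93, beside 10.5% higher and a median of 0.03 over all genes with that share. Disulfide enzymes, cochaperones and secreted folding factors held most of the higher genes, and ERAD genes and stress sensors held none. With total-count scaling, which moved the all-gene median by −0.22, 8 of the 30 were higher, and on log2(TPM + 1), which moved it by −0.23, 4 were (Pdia4, Creld2, Sdf2l1 and Pdia3). None was lower under either. Of all 17295 genes, 873 were higher and 1863 lower with total counts, and 524 higher and 1131 lower on log2(TPM + 1). Over all genes, 54.4% of those called were higher, 31.9% with total counts and 31.7% on log2(TPM + 1).

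**Figure D1:**
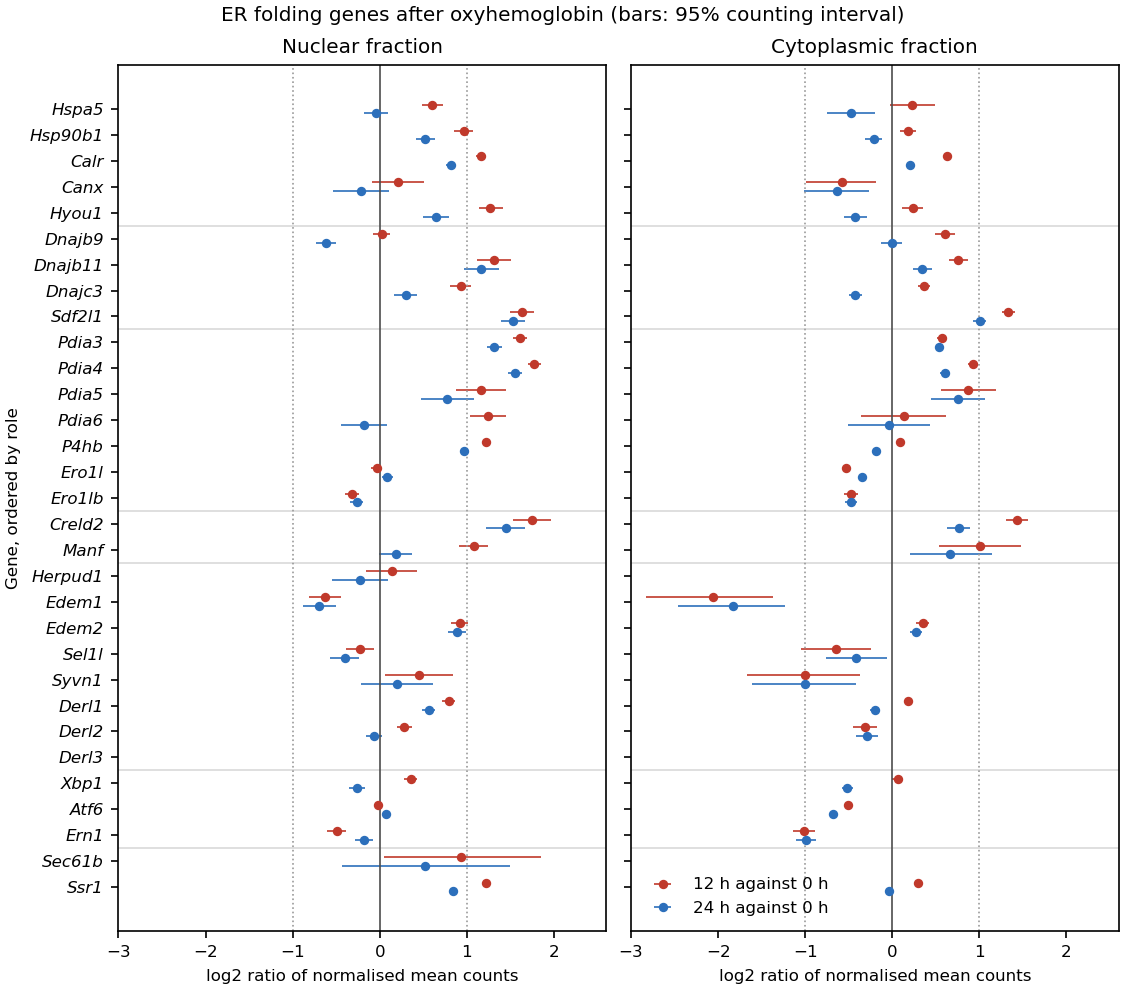
log2 ratio of the normalised mean counts at 12 h (red) and 24 h (blue) against 0 h for each ER folding gene, nuclear fraction left and cytoplasmic fraction right, with bars for the 95% counting interval and dotted lines at 2-fold. Most chaperones, cochaperones and disulfide enzymes lie right of 0 in the nucleus at 12 h, up to Pdia4 at 1.77, and nearer to 0 in the cytoplasm.

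Of the 7 disulfide enzymes, 5 were called higher in the nucleus at 12 h and their median log2 ratio was 1.22. Pdia4 (chromosome 6, 47796141 to 47813430), an ER protein disulfide isomerase, was at 119, 405 and 348 normalised CPM in the nucleus at 0, 12 and 24 h. Its cytoplasmic levels at the same times were 189, 359.6 and 287 CPM. Both treated groups of each fraction thus lay above the untreated one, and Pdia4 had the largest nuclear ratio of the 30 genes at 12 h, 3.42-fold (log2 1.77, interval 1.70 to 1.85). Pdia3 (chromosome 2, 121413775 to 121438687), the isomerase that works on glycoproteins bound to calnexin and calreticulin, was at 94.6, 289 and 236 CPM in the nucleus and at 240.4, 358 and 349 in the cytoplasm. It was 3.05-fold higher in the nucleus at 12 h (log2 1.61, interval 1.53 to 1.69) and 1.49-fold higher in the cytoplasm. P4hb, the classical protein disulfide isomerase, was at 314, 733 and 616 CPM in the nucleus (2.34-fold at 12 h). In the cytoplasm P4hb was nearly level, at 1143, 1212 and 1004 CPM.

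The isomerase genes Pdia5 and Pdia6 were also called higher in the nucleus at 12 h. Pdia5 went from 8.90 CPM at 0 h to 19.9 at 12 h and 15.3 at 24 h (log2 1.16 at 12 h, interval 0.87 to 1.45). Its cytoplasmic levels were 6.61, 12.1 and 11.1. For Pdia6, which has an ERSE 98 to 80 bases upstream, nuclear levels were 16.8, 39.8 and 14.9 CPM, so that the nuclear group at 12 h stood alone above the other 2. In the cytoplasm Pdia6 was at 3.76, 4.12 and 3.67, from mean counts of 22.0 to 27.7. The oxidases that recharge the isomerases did not share the pattern. Ero1l was at 291, 284 and 309.7 CPM in the nucleus (log2 −0.04 at 12 h) and at 838, 582 and 661 in the cytoplasm (−0.53). Ero1lb was at −0.32 in the nucleus and −0.47 in the cytoplasm at 12 h, both under 2-fold.

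Both secreted folding factors were called higher in both fractions at 12 h. Creld2 (chromosome 15, 88819646 to 88826683) encodes an ER stress-induced protein with EGF-like domains. It was at 14.0, 46.9 and 38.1 CPM in the nucleus and at 34.95, 94.5 and 59.2 in the cytoplasm. At 12 h this was 3.35-fold in the nucleus (log2 1.74, interval 1.53 to 1.97) and 2.70-fold in the cytoplasm (log2 1.44, interval 1.31 to 1.56). Manf (chromosome 9, 106838312 to 106891979), a neurotrophic factor kept in the ER until stress releases it, was at 27.0, 57.1 and 30.7 CPM in the nucleus, with the group at 12 h apart from the other 2. The cytoplasmic levels of Manf were 2.99, 5.998 and 4.74 CPM, from mean counts of 22.0 to 32.3 (log2 1.01 at 12 h, interval 0.54 to 1.48). Of its exonic bases 9.25% overlap other genes.

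Among the 4 cochaperones, 2 were called higher in the nucleus at 12 h, with a median of 1.12. Sdf2l1 (chromosome 16, 17130138 to 17132383), a partner of the BiP chaperone complex, was at 35.6, 110.4 and 103 CPM in the nucleus and at 104, 261 and 208 in the cytoplasm. All 4 treated groups were at least 2-fold above their untreated group, and at 12 h the ratio was 3.10-fold in the nucleus (log2 1.63, interval 1.496 to 1.77) and 2.52-fold in the cytoplasm. Dnajb11, which delivers unfolded clients to BiP, was at 18.8, 46.6 and 42.3 CPM in the nucleus (log2 1.31, interval 1.11 to 1.504) and at 59.2, 100.2 and 75.2 in the cytoplasm (0.76). Dnajc3, a BiP cochaperone also known as an inhibitor of PERK, was just under the limit in the nucleus, with levels of 52.3, 99.7 and 64.3 CPM (log2 0.93, interval 0.81 to 1.05). Dnajb9, which helps BiP hold IRE1 inactive, was at 99.9, 101 and 65.1 CPM in the nucleus and at 55.5, 84.5 and 55.1 in the cytoplasm. For Dnajb9 the cytoplasmic level at 12 h was 1.52-fold that at 0 h while the nuclear level was 1.01-fold.

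The 5 chaperones had a nuclear median of 0.96 at 12 h, and 2 of them were called higher. Hyou1, a large Hsp70-like protein that exchanges nucleotide on BiP, was at 37.7, 91.1 and 59.0 CPM in the nucleus (log2 1.27, interval 1.14 to 1.41). Its cytoplasmic levels were 51.7, 60.7 and 38.5. Calr, the lectin chaperone calreticulin, was at 234, 523 and 414 CPM in the nucleus (log2 1.16, interval 1.10 to 1.21) and at 467, 724 and 539 in the cytoplasm (0.63). Hsp90b1, the ER member of the Hsp90 family, was at 69.5, 136 and 100.0 CPM in the nucleus, just under 2-fold at 12 h (log2 0.96, interval 0.86 to 1.07). Hspa5, which encodes BiP itself and is the classical readout of the pathway, was at 57.5, 87.5 and 55.8 CPM in the nucleus (1.52-fold at 12 h, log2 0.60, interval 0.48 to 0.73). In the cytoplasm it was at 12.1, 14.2 and 8.75 CPM, from mean counts of 59.7 to 89.3, and the interval at 12 h (−0.03 to 0.49) included 0. Canx, the membrane-bound lectin chaperone calnexin, was at 11.1, 12.9 and 9.61 CPM in the nucleus. Its interval at 12 h included 0 as well (−0.08 to 0.51).

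No ERAD gene was called higher in the nucleus, and the median of the 7 compared was 0.28 at 12 h. Edem2, which trims mannose from misfolded glycoproteins, was nearest to the limit with 77.5, 146 and 144 CPM (log2 0.92, interval 0.82 to 1.02). Its relative Edem1 was on the other side, at 39.7, 25.7 and 24.5 CPM in the nucleus (log2 −0.63, interval −0.81 to −0.45) and at 5.21, 1.25 and 1.47 in the cytoplasm. Edem1 was called lower in the cytoplasm at both times, from mean counts of 38.3, 6.67 and 10. Of the retrotranslocation genes, Derl1 was at 154, 266 and 227 CPM in the nucleus (0.79), and Derl2 at 126, 153 and 119.8 (0.28). Syvn1, the ubiquitin ligase of this machinery, was at 6.06, 8.30 and 6.95 CPM in the nucleus and at 3.62, 1.81 and 1.81 in the cytoplasm, from cytoplasmic mean counts of 26.7, 9.67 and 12.3. Its adaptor Sel1l was at −0.23 in the nucleus and −0.64 in the cytoplasm at 12 h. Herpud1, an ER membrane protein with an ERSE-II promoter, was at 11.7, 12.8 and 10.0 CPM in the nucleus, and the interval at 12 h (−0.16 to 0.43) included 0.

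Of the translocation genes, Ssr1, a subunit of the translocon-associated protein complex, was at 475, 1103 and 853 CPM in the nucleus (log2 1.22, interval 1.18 to 1.26). In the cytoplasm it was at 1179, 1449 and 1152. Sec61b, a subunit of the translocation channel, was at mean counts of 6, 10.7 and 7.67 in the nucleus, and its log2 ratio at 12 h was 0.93 with an interval of 0.05 to 1.85.

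The sensors and effectors themselves were not called higher in any time comparison. Atf6 (98.9% of exonic bases in a single transcript) was at 546, 538 and 573 CPM in the nucleus, a ratio of 0.985 at 12 h. In the cytoplasm it was at 599, 423 and 375, so both treated groups were below the untreated one, under 2-fold (log2 −0.50 and −0.68). Ern1 was at 107, 76.3 and 94.7 CPM in the nucleus and at 91.0, 45.0 and 45.8 in the cytoplasm, where it was called lower at 12 h (log2 −1.02, interval −1.14 to −0.89) and stood at −0.99 at 24 h. Xbp1 was at 152, 194 and 127 CPM in the nucleus (log2 0.35 at 12 h) and at 228, 238 and 159.8 in the cytoplasm (0.06). For Xbp1 the groups at 24 h were the lowest of both fractions.

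**Figure D2:**
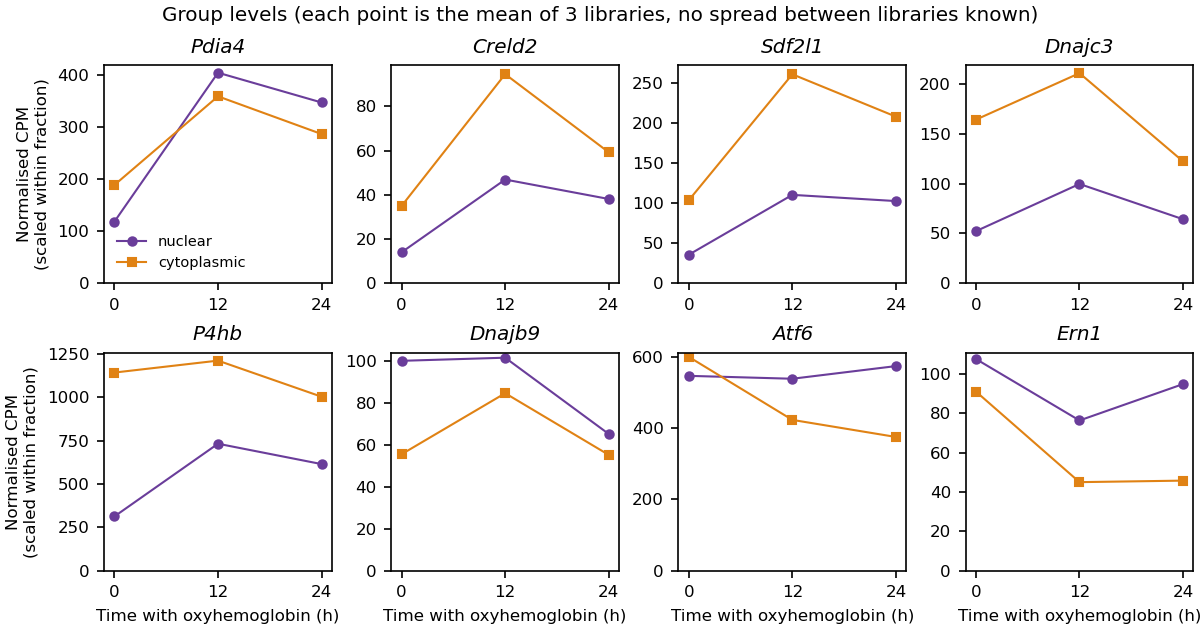
Normalised CPM of 8 ER folding genes against hours with oxyhemoglobin, nuclear groups as purple circles and cytoplasmic groups as orange squares, each the mean of 3 libraries and each fraction on its own scale. Pdia4, Creld2 and Sdf2l1 are highest at 12 h in both fractions, P4hb is higher in the treated nuclear groups with nearly level cytoplasmic values, and Atf6 and Ern1 are lower in the treated cytoplasmic groups.

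Levels per exonic kilobase are set side by side for the 9 genes with a single-transcript share of at least 80%. Of their single-transcript bases, 47.1% lay in a protein-coding transcript for Derl2, 57.8% for Edem2 and 78.3% for Atf6. For the rest of the 9 it was 100%. The levels of Derl2, Edem2 and Atf6 are thus divided by a length that partly belongs to other transcript types, and their places are uncertain. In untreated nuclei Atf6 was highest at 59.2 normalised CPM per exonic kilobase, followed by Pdia4 (49.4), Ssr1 (45.5), Dnajb9 (39.2) and Sdf2l1 (32.1), and Creld2 and Dnajc3 were lowest (both 10.2). In untreated cytoplasm the order was Ssr1 (113), Sdf2l1 (93.5), Pdia4 (78.8), Atf6 (64.9), Edem2 (38.8), Dnajc3 (32.0), Creld2 (25.6), Dnajb9 (21.8) and Derl2 (6.76). At 12 h Pdia4 led in the nucleus (169) and Sdf2l1 in the cytoplasm (236). No spread between libraries is known, so neighbours in these orders cannot be said to differ.

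By 24 h fewer genes were past 2-fold in the nucleus. Called higher against 0 h were 5 of 30 (16.7%), against 7.88% of all genes, and 0 were called lower, against 5.75%. These 5 were Pdia4 (log2 1.55), Sdf2l1 (1.53), Creld2 (1.45), Pdia3 (1.32) and Dnajb11 (1.17). The median of the 30 was 0.25, which was −0.05 with total counts and −0.22 on log2(TPM + 1), while the all-gene median moved by −0.30 and −0.45 under these scalings. On the TPM scale none of the 30 was called higher and 2 were lower, Dnajb9 (−1.21) and Edem1 (−1.05). Of all 17295 genes, 344 were higher and 2337 lower on that scale. Among the 9 genes with high single-transcript shares the median was 0.85 and 3 were higher, beside 0.03 and 11.2% over all genes with that share. Of all called genes 57.8% were higher, 27.5% with total counts and 12.8% on log2(TPM + 1).

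Set against 12 h, nuclear levels at 24 h were mostly lower by less than 2-fold. Only 4 of 30 ratios were above 0 and the median was −0.32, beside −0.02 for all genes. Pdia6 was the 1 gene called lower (log2 −1.42, interval −1.65 to −1.20), against 1.19% of all genes, and 0 were called higher, against 1.83%. Next were Manf (−0.90), Hspa5 (−0.65), Dnajb9 (−0.64), Dnajc3 (−0.63) and Hyou1 (−0.63). Edem2 (−0.03), Ero1lb (0.05), Edem1 (−0.07) and Atf6 (0.09) were closest to their level at 12 h, and Ern1 was highest at 0.31. Over all genes 60.7% of those called were higher, 44.2% with total counts and 9.31% on log2(TPM + 1), under which the all-gene median moved by −0.22.

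In the cytoplasm fewer ER folding genes were past 2-fold. At 12 h 3 of 28 (10.7%) were called higher, against 11.7% of the 11751 genes compared, so the share was near the background. These were Creld2 (log2 1.44), Sdf2l1 (1.33) and Manf (1.01). Called lower were 2 (7.14%), against 8.99% of all, namely Edem1 (−2.06, interval −2.82 to −1.37) and Ern1 (−1.02). Syvn1 was 0.500-fold, just short of the limit (interval −1.67 to −0.37). Pdia4 (0.93), Pdia5 (0.87) and Dnajb11 (0.76) were the highest below 2-fold. The median of the 28 was 0.21 and that of all genes −0.04. On log2(TPM + 1), under which the all-gene median moved by −0.47, the median of the 28 turned to −0.41, none was called higher and 4 were lower. Of all 11751 genes, 411 were higher and 2245 lower on that scale. The 9 genes with high single-transcript shares had a median of 0.36 with 2 higher and 0 lower, beside 0.14 and 18.1% higher over all genes with that share. Of all called genes 56.5% were higher, and 15.5% on log2(TPM + 1).

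At 24 h 1 of 28 cytoplasmic genes was called higher, Sdf2l1 (log2 1.01, interval 0.93 to 1.08), against 10.4% of all genes. Lower were 2, Edem1 (−1.83) and Syvn1 (0.499-fold, interval −1.60 to −0.42), against 6.71%. The median was −0.21, beside −0.06 for all genes, and 9 of the 28 ratios were above 0. Chaperones had a median of −0.43, with Calr at 0.21 alone above 0, while Pdia5 (0.75), Creld2 (0.76), Manf (0.67) and Pdia4 (0.60) were highest below 2-fold. Between 12 and 24 h 0 of 28 were called higher and 0 lower, against 2.9% and 1.89% of all genes, with a median of −0.30 beside −0.04. Dnajc3 (−0.79), Hspa5 (−0.70), Creld2 (−0.68) and Hyou1 (−0.66) were lowest. Over all genes 60.7% of the called genes were higher at 24 h against 0 h, and 21.6% on log2(TPM + 1), under which the all-gene median moved by −0.35. Between 12 and 24 h it was 60.6%, and 73.4% with total counts (median moved by 0.11).

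Nuclear and cytoplasmic levels were also set against each other, with all 6 groups scaled together. Most ER folding transcripts were lower in the nucleus than in the cytoplasm of untreated cells. Called lower in the nucleus were 17 of 30 (56.7%), against 32.7% of the 17902 genes compared, and 6 were higher (20.0%), against 47.5%. The median log2 ratio was −1.50, beside 0.78 for all genes. The lowest ratios were those of P4hb (−3.09, interval −3.13 to −3.05), Dnajc3 (−2.87), Dnajb11 (−2.87), Sdf2l1 (−2.76) and Ero1l (−2.75). Higher in the nucleus were Herpud1 (3.98, interval 2.91 to 5.32), Manf (1.95), Sec61b (1.78, interval 0.01 to 4.19, from 3 cytoplasmic reads), Edem1 (1.71), Sel1l (1.33) and Hspa5 (1.02). Herpud1 and Sec61b passed the limit on low counts only through their nuclear groups. That limit favoured a higher call for them, so these calls carry no weight. Herpud1, Edem1 and Sel1l have single-transcript shares under 30%, and in the 2 lowest ranges of that share the median of protein-coding genes was itself 0.91 and 0.67. In the range of 80% to 100% it was −2.11, and the 9 ER folding genes there had a median of −2.02 with 7 lower. Over all genes with that share, protein-coding or not, 31.9% were lower and the median was 1.71. With total counts, which moved the all-gene median by 1.41, the median of the 30 was −0.08, and Ero1lb and Atf6 turned to above 0.

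**Figure D3:**
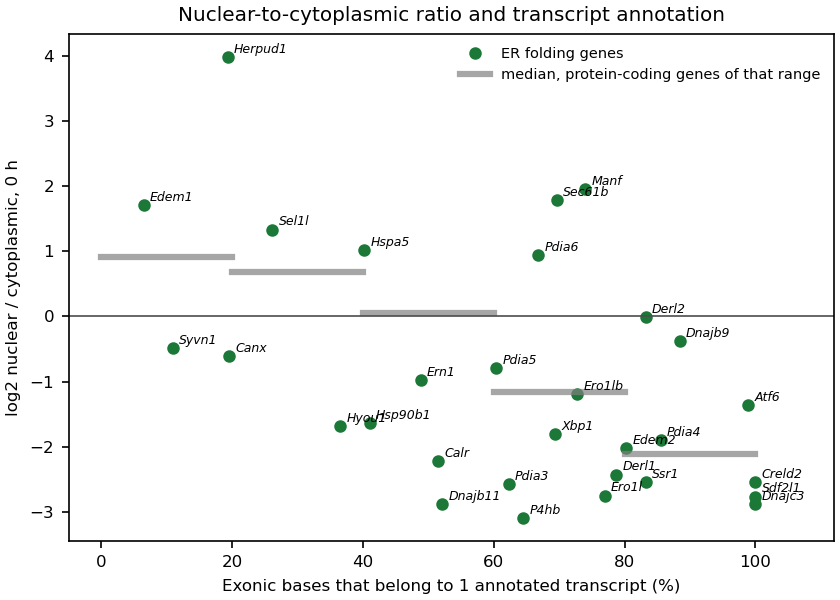
log2 ratio of nuclear to cytoplasmic level in untreated cells against the percentage of a gene's exonic bases that belong to a single annotated transcript, for the 30 ER folding genes compared (green), with grey bars for the median of protein-coding genes in each range. The grey medians go from 0.91 in the lowest range to −2.11 in the highest. Herpud1, Manf, Sec61b and Pdia6 lie well above the median of their range, as do Derl2 and Dnajb9 in the highest range. Herpud1 and Sec61b passed the limit on low counts only through their nuclear groups.

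After treatment the ratios stood further towards the nucleus for most of these genes. At 12 h 12 of 30 were called lower in the nucleus and 7 higher (29.3% and 46.4% of all genes), with a median of −0.79. At 24 h 12 were lower and 5 higher (28.9% and 45.7% of all genes), with a median of −0.85. With total counts these medians were 0.31 and 0.11. The shift of the ratio from 0 to 12 h had a median of 0.67 over the 30 genes, beside 0.22 over all genes, and 27 of the 30 shifts were above 0. At 12 h 7 were called higher (23.3%), against 9.94% of all, and 1 lower, against 5.91%. Those called higher were Syvn1 (1.58, interval 0.86 to 2.30), Edem1 (1.56), P4hb (1.27, interval 1.21 to 1.32), Pdia6 (1.24), Hyou1 (1.17), Pdia3 (1.16) and Ssr1 (1.05). Of these, Syvn1 and Edem1 are ERAD genes with low cytoplasmic mean counts at 12 h (9.67 and 6.67). Their single-transcript shares are 10.9% and 6.46%. Herpud1, also an ERAD gene, was the 1 called lower (−1.72, interval −2.99 to −0.44), from cytoplasmic mean counts of 2.33 and 6.67. It was compared here only because its nuclear groups passed the limit on low counts.

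From 0 to 24 h the median shift was 0.69, beside 0.14 over all genes. Called higher were 5 (8.24% of all genes), namely Syvn1 (1.27), P4hb (1.23), Edem1 (1.21), Hyou1 (1.14) and Pdia4 (1.02), and Herpud1 was again lower (−1.85; 7.09% of all genes). Dnajb9 went the other way at both times, with −0.46 and −0.54, under 2-fold. With total counts, 2 of the 30 shifts were called higher at 12 h and 0 at 24 h. Of all 17902 genes, 692 and 319 were. The medians of the 30 were 0.35 and 0.23 while the median of all genes moved by −0.32 and −0.46. Edem1 turned to −0.25 at 24 h on log2(TPM + 1). The share of called genes that were higher over all genes was 62.7% at 12 h and 53.8% at 24 h, 27.97% and 10% with total counts, and 73.6% and 24.1% on log2(TPM + 1). For the ratios of nucleus to cytoplasm at 0, 12 and 24 h it was 59.2%, 61.3% and 61.3%, and 78.9%, 80.3% and 78.9% with total counts.

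Other genes of the same pathways were counted for comparison, to be read against 7.92% of all genes called higher and 6.64% lower in the nucleus at 12 h. In the nucleus at 12 h, translocon and signal peptide genes had 6 of 23 higher and 0 lower (median 0.41). They included Ssr3 (1.34), a partner of Ssr1, the receptor subunit gene Srpr of the signal recognition particle (1.19) and the signal peptidase subunit gene Spcs3 (1.05). N-glycosylation and calnexin cycle genes had 3 of 21 higher and 1 lower (median 0.71), with the oligosaccharyltransferase genes Ostc (1.27) and Rpn1 (1.15) and the mannosyltransferase gene Alg2 (1.15). Other folding enzymes and cochaperones had 3 of 28 higher (10.7%, near the share of all genes) and 2 lower (median 0.28), with Kdelr2 (1.26), the receptor that returns chaperones to the ER, Fkbp11 (1.19) and Txndc11 (1.07). Other ERAD genes had 3 of 18 higher and 0 lower (median 0.45), among them Vcp (1.13), the ATPase that pulls substrates out of the membrane, and Ube2g2 (1.04), a ubiquitin-conjugating enzyme. Cytosolic chaperones, many of them known targets of heat shock factor rather than of the ER sensors, had 4 of 27 higher and 0 lower (median 0.61). They included Bag3 (1.29), Hsp90ab1 (1.11) and Stip1 (1.07). This list also holds the mitochondrial chaperone genes Hspa9 (0.36), Hspd1 (0.997) and Hspe1 (0.71), all under 2-fold.

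Genes of the PERK and ATF4 arm had 1 of 12 higher (8.33%, against 7.92% of all genes) and 0 lower in the nucleus at 12 h (median 0.14), with Ddit3 at −0.57, Ppp1r15b at 0.53 and Sesn2 at 0.40, all under 2-fold. The 1 called higher was the transcription factor gene Atf3 (1.33), which was at 1.95 in the cytoplasm. Atf3 is named after its values were seen. It averaged under 5 CPM in each fraction, below the limit for naming genes, so its ratios rest on low levels. Of its exonic bases 18.7% belong to a single transcript. In the cytoplasm 2 of 12 were higher, against 11.7% of all genes, and 1 was lower, against 8.99%, with a median of −0.24. Ddit3, which encodes the stress factor CHOP, was at 31.1, 66.7 and 41.9 CPM in the cytoplasm (log2 1.10 at 12 h, interval 0.96 to 1.24) and at 73.1, 49.2 and 44.2 in the nucleus. Its nuclear and cytoplasmic ratios at 12 h thus had opposite signs, and 10.9% of its exonic bases overlap other genes. Among these is another annotated entry of the same symbol, and only the Ddit3 entry with more counts was used. Asns was at 0.41 and Eif2ak3, the gene of PERK, at −0.38 in the cytoplasm. Regulators of the ATF6 and IRE1 arms had 0 of 9 called in the nucleus (median 0.28; Tmbim6 0.69, Rtcb 0.54, Atf6b 0.53) and 0 of 8 in the cytoplasm (median −0.05; Bax 0.67, Mbtps2 −0.46, Mbtps1 −0.45). Mbtps1 and Mbtps2 encode the proteases that cut ATF6.

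Cytoplasmic counts of the other lists at 12 h stand beside 11.7% of all genes called higher and 8.99% lower. Other ERAD genes had 1 of 17 higher and 2 lower (median −0.08), with Rnf5 at −1.67, Aup1 at −1.003 and Ngly1 at 0.88. Other folding genes had 1 of 25 higher and 2 lower (median 0.16; Ppib −1.14, Txndc11 1.12, Selenof 0.91). Translocon genes had 2 of 20 higher and 0 lower (median 0.21; Srp9 1.14, Ssr4 −0.80, Sec63 −0.70), and N-glycosylation genes 1 of 17 higher and 0 lower (median 0.27; Ostc 0.89, Uggt1 −0.89, Dad1 0.78). Cytosolic chaperones had 2 of 27 higher and 0 lower (median 0.25; Dnajb1 1.03, Ptges3 1.02, Cct5 0.87). Among the called genes named here, the share of exonic bases that overlap other genes was highest for Ppib (25.0%), Rnf5 (24.7%), Aup1 (23.0%) and Srp9 (14.1%). For the nucleus at 24 h, the shares of all genes were 7.88% higher and 5.75% lower. There cytosolic chaperones had 4 of 27 higher and 0 lower, and N-glycosylation genes 1 of 21 higher and 1 lower. The PERK and ATF4 arm had 1 of 12 higher and 0 lower. Every other list had 0 higher, and of these only other folding genes had any lower (2 of 28). List medians ran from 0.04 to 0.42.

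**Figure D4:**
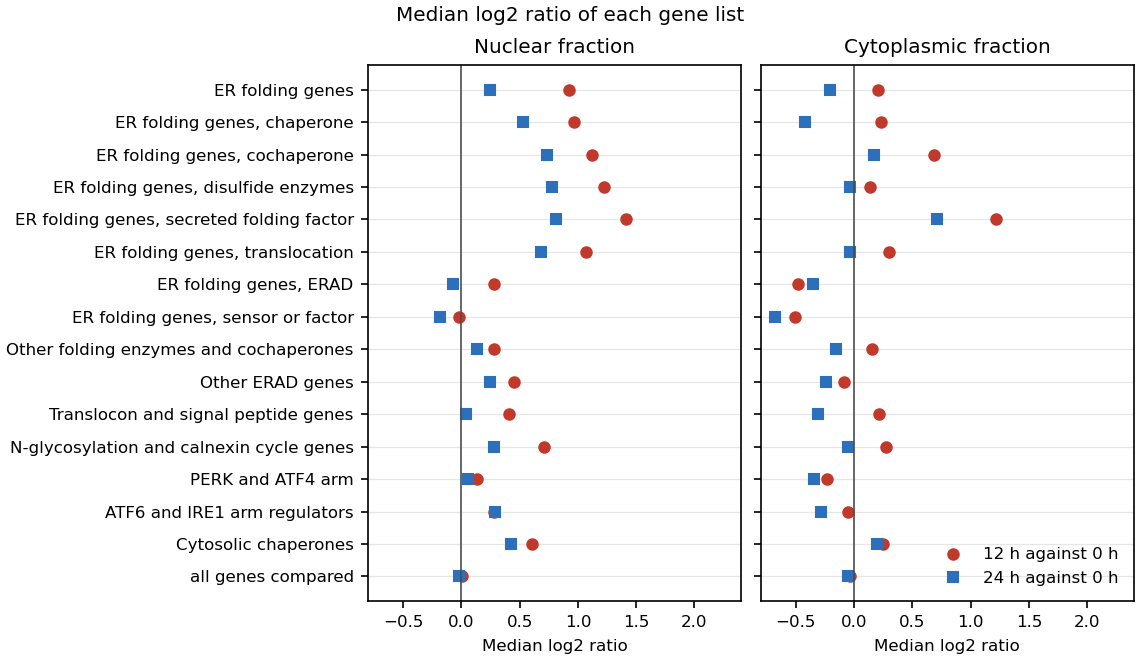
Median log2 ratio at 12 h (red circles) and 24 h (blue squares) against 0 h for all ER folding genes, for each role among them, for the other pathway lists and for all genes compared, nuclear fraction left and cytoplasmic fraction right. In the nucleus at 12 h the ER folding genes have a median of 0.92 and all genes 0.00, and ERAD genes and sensors have the lowest medians among the roles.

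Genes with and without an ERSE or ERSE-II promoter were set side by side, with 7.92% of all genes called higher in the nucleus at 12 h. Of the 10 compared with such an element, 3 were called higher in the nucleus at 12 h (Creld2, Pdia6 and Calr), with a median of 0.77. Of the 16 compared with a RefSeq promoter and neither element, 7 were, with a median of 0.92. Pdia4, Sdf2l1 and Pdia3, with the largest nuclear ratios beside Creld2, are in the group without one, while Hspa5, Hsp90b1, Canx, Dnajc3, Ero1lb, Syvn1 and Herpud1 have an element and were under 2-fold. In the cytoplasm at 12 h the medians were 0.18 over 9 genes and 0.30 over 15.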

How the data were processed

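Nuclear and cytoplasmic RNA of BV2 cells was measured in 6 groups of 3 libraries. HISAT2 2.2.0, featureCounts, DESeq2 and GRCm38 are named in the submitters' processing notes. How strand was set, and from which annotation release, is not given in the sources used here. In the deposited count table each group has a single column. Multiplied by 3, its values were whole within 0.01, while 28.1% to 34.9% of them were not whole as they stand. Each deposited column was therefore read as the authors' mean count of 3 libraries. The planned test for replicated counts could therefore not be run and was replaced by sizes with counting intervals. The deposited TPM values were computed by the authors from these means; the implied gene length equalled the summed length of all annotated transcripts, within 0.1%, for 98.0% of 16156 genes. No deposited per-sample column was left unused (0).

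All values were computed in Python 3.11.15 (numpy 2.4.6, pandas 2.3.3, scipy 1.17.1; figures with matplotlib 3.10.9) and the calculation was tested on simulated counts. TMM trimmed 30% of log ratios and 5% of mean levels at each end, over the 3 groups of a fraction for time comparisons and over all 6 groups for nuclear-to-cytoplasmic ratios. A gene was compared where at least 1 group reached the CPM equivalent of 10 counts at the median depth. Counting intervals (95%) are exact Clopper-Pearson intervals on the reads summed over 3 libraries, and a normal approximation for the shift of a nuclear-to-cytoplasmic ratio. Reads without molecular identifiers are not independent molecules, so intervals cover counting error only.

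Genes were named by a rule: every ER folding gene, and from each pathway list the 3 genes with the largest absolute log2 ratio at 12 h in each fraction, where the groups of that fraction averaged 5 CPM or more. Of the genes so chosen, 1 is not reported here. Of the 21 listed other ERAD genes 20 were matched, and all genes of the remaining lists were. The ER folding genes and the lists were chosen with earlier results of these data known, so a list's direction is not independent evidence.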

Additional observations from a re-analysis of the deposited data

Results flagged for a closer look

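For 3 genes the nuclear and the cytoplasmic log2 ratio against 0 h had opposite signs, each with a counting interval that excluded 0, and their shift was over 2-fold. Syvn1, the ERAD ubiquitin ligase, was at 0.45 in the nucleus and −0.999 in the cytoplasm at 12 h, a shift of 1.58. At 24 h its ratios also had opposite signs (0.20 and −1.002, a shift of 1.27), but the nuclear interval (−0.21 to 0.61) included 0. Hyou1, the nucleotide exchange chaperone, was at 0.65 and −0.43 at 24 h, a shift of 1.14. P4hb, the classical disulfide isomerase, was at 0.97 and −0.19 at 24 h, a shift of 1.23. The shifts come from all 6 groups scaled together and so are not the plain difference of the 2 ratios. With 1 mean per group the difference between fractions was not tested. The cytoplasmic mean counts of Syvn1 were 26.7 at 0 h and 9.67 at 12 h, and its single-transcript share was 10.9%.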

How the results depend on the processing

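No paired analysis was possible because each group has 1 column of means that carries no replicate number, and for the same reason leaving out a replicate was not run. The limits are thus counting error, scaling and the annotation of shared sequence. Counts past 2-fold below are higher and lower ER folding genes, and the cause of a difference was not tested unless the setting itself is a lower or higher limit.

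Among the 22 counts of higher or lower genes, TMM without the most abundant nuclear gene and the mitochondrial genes moved 0 by over 1.5 times, scaling by the median of ratios 1 (0 cytoplasmic genes higher at 24 h) and no filter on low counts 1 (3 there). A limit of 50 counts moved 2, leaving 1 lower cytoplasmic gene at 12 h and 0 at 24 h. Total counts moved 8: cytoplasmic 24 h had 1 lower, the nuclear-to-cytoplasmic ratio had 9 lower at 0 h, 5 lower at 12 h, and 8 higher and 4 lower at 24 h, and its shift had 2 higher at 12 h and 0 higher and 2 lower at 24 h. Under total counts the ratio at 0 h turned to 0.22 for Ero1lb and 0.0569 for Atf6. Of all 11751 cytoplasmic genes at 24 h, 1180 were higher by the median of ratios and 642 lower with total counts. Of all 17902, the ratio with total counts had 2923 lower at 0 h and 2616 lower at 12 h. At 24 h it had 10345 higher and 2766 lower. Its shift had 692 higher at 12 h, and 319 higher and 2871 lower at 24 h.

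On log2(TPM + 1), 12 counts moved. Nuclear genes numbered 4 higher at 12 h, 0 higher and 2 lower at 24 h, and 2 lower for 24 h against 12 h. Cytoplasmic genes numbered 0 higher and 4 lower at 12 h and 0 higher at 24 h. The nuclear-to-cytoplasmic ratio had 3 lower at 12 h and 7 lower at 24 h, and its shift had 0 lower at 12 h and 1 higher and 0 lower at 24 h, where Edem1 turned to −0.25. Of all 17295 nuclear genes, 524 were higher at 12 h, and 344 higher and 2337 lower at 24 h. For 24 h against 12 h 263 were lower. Of all 11751 cytoplasmic genes, 411 were higher and 2245 lower at 12 h, and 376 higher at 24 h. Of all 17902, the ratio had 2208 lower at 12 h and 3071 at 24 h. Its shift had 873 lower at 12 h, and 592 higher and 1865 lower at 24 h. On log2(TPM + 0.1), 13 moved. Nuclear genes numbered 4 higher at 12 h, 0 higher and 2 lower at 24 h, and 2 lower for 24 h against 12 h. Cytoplasmic ones numbered 0 higher and 9 lower at 12 h, and 0 higher and 7 lower at 24 h. The ratio had 4 lower at 12 h and 7 lower at 24 h. The shift had 12 higher at 12 h, and 1 higher and 2 lower at 24 h. Of all nuclear genes, 715 were higher at 12 h, and 463 higher and 4034 lower at 24 h. For 24 h against 12 h 538 were lower. Of all 11751 cytoplasmic genes, 567 were higher and 3867 lower at 12 h, and 559 higher and 2381 lower at 24 h. Over all genes the ratio had 2483 lower at 12 h and 3437 at 24 h. The shift had 4330 higher at 12 h, and 1226 higher and 3003 lower at 24 h.

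A 1.5-fold limit moved 11: nuclear 1 lower at 12 h, 11 higher and 2 lower at 24 h, 7 lower for 24 h against 12 h; cytoplasmic 8 higher and 4 lower at 12 h, 5 higher and 5 lower at 24 h, 5 lower for 24 h against 12 h; the shift 19 higher at 12 h and 17 higher at 24 h. The restriction to a single-transcript share of at least 80% was chosen after seeing the data.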
